A study of Homo sapiens with 18 samples.

Results

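The integrin and laminin genes are the 38 genes, of 58051 in the count table, whose symbol names an integrin alpha chain (18 genes, the ITGA series), an integrin beta chain (8 genes, the ITGB series) or a laminin chain (12 genes, the LAMA, LAMB and LAMC series). They were picked by symbol and not by a cut on any measured value, though with earlier results of these data known. They were followed through 18 RNA sequencing libraries of 2 human melanoma cell lines, SKMEL2 and SKMEL30, both of which carry an NRAS mutation and a stably integrated lentiviral pTRIPZ vector that expresses Myc-tagged PPP2R3B in the presence of doxycycline. PPP2R3B encodes PR70, a regulatory subunit of the phosphatase PP2A. Each line gave 3 groups of 3 libraries, namely uninduced cells, cells induced for 6 hours and cells induced for 18 hours. All 6 groups, the uninduced ones included, carry the vector and were selected with puromycin, and each line is represented by a single transduced line. No group without the vector received doxycycline, so an effect of doxycycline and an effect of PPP2R3B cannot be told apart. The labels give no time for the uninduced cells, and the same 3 libraries of a line served as control at both times. An effect of time in culture therefore cannot be told apart from induction either. The labels do not say that replicates were separate cultures, and the p-values below then measure only the spread between these samples, which may be technical.

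Integrins are transmembrane receptors, each built from 1 alpha and 1 beta chain, that tie the cytoskeleton to the extracellular matrix. Laminins are the main adhesive proteins of basement membranes, and each is a trimer of 1 alpha, 1 beta and 1 gamma chain. Melanocytes sit on the epidermal basement membrane, and the integrins of melanoma cells have long been studied in connection with invasion. The study asked how raised PPP2R3B alters proliferation and migration, and the questions put to these genes here were which chains each line transcribes and whether induction changed them.

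LAMA3, LAMB3 and ITGB4 were all highest in the same SKMEL30 library, as described below, and the promoters of LAMA3 and LAMB3 are shown for that reason. The sequences are the 250 bases upstream of the RefSeq start on GRCh38.p14, read 5′ to 3′ on the gene's strand, with matches to the AP-1 site TGANTCA in capitals. The LAMA3 window lies at chr18:23872770-23873019 on the plus strand, and this start lies 183567 bases inside the annotated gene. The LAMB3 window lies at chr1:209652426-209652675 on the minus strand.
LAMA3: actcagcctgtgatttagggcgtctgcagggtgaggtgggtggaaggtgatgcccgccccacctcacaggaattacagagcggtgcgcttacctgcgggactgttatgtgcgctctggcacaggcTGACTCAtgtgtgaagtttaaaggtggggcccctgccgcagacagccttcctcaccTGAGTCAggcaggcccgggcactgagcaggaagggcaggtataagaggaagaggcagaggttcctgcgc
LAMB3: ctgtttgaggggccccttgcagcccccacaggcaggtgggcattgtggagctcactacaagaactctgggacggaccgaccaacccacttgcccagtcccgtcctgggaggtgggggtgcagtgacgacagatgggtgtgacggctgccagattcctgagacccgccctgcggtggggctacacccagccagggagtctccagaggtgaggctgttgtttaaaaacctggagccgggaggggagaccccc
The LAMA3 window held the AP-1 letters at 125 to 119 and at 69 to 63 bases before the start. The M-box letters TCATGTG, at 121 to 115 bases before the start, overlapped the farther of these matches. The LAMB3 window held neither. Both windows held the GC box GGGCGG on the opposite strand only, so that it reads CCGCCC in the sequences shown. It lay at 197 to 192 bases before the start in LAMA3 and at 88 to 83 in LAMB3. On either strand, AP-1 letters were found in 6.6% of 27305 promoters of this length, M-box letters in 2.58%, the E-box CACGTG in 6.49% and the GC box in 42.3%. Of the 26 members with a promoter in the RefSeq table, 1 held AP-1 letters (LAMA3), 2 the M-box (LAMA3 and ITGB7), 1 the E-box (ITGA6) and 13 the GC box. These matches describe letters in 1 window per gene and are not evidence of binding.

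Levels are given as CPM, the counts of a gene scaled to libraries of equal normalised size, and those between genes as CPM per kilobase of exon (RPKM). Libraries held 13402645 to 22383470 counts. All 9 melanocytic markers examined, among them MITF and SOX10, were detected in every group, with summed levels of 4241 to 4944 CPM in SKMEL2 and 8838 to 9365 CPM in SKMEL30. Summed markers of other cell types also separated the lines. Leukocyte markers ran from 18.5 to 21.9 CPM in SKMEL2 and from 1.07 to 1.94 CPM in SKMEL30, endothelial markers from 10.35 to 14.1 and from 0.819 to 2.31 CPM, and fibroblast markers from 3.33 to 6.27 and from 28.4 to 33.6 CPM. Between the uninduced lines, 3 of 3 tested leukocyte and 3 of 3 tested endothelial markers were called higher in SKMEL2, while of 3 fibroblast markers 1 was called higher and 1 lower. Of all genes tested, 40.1% were called higher in SKMEL2 and 35.8% lower, and lists this short say little beside those shares. The part of these markers in the line differences was not tested. PPP2R3B, endogenous and vector-borne transcripts together, averaged 20.7 CPM in uninduced SKMEL2 and 20.9 in uninduced SKMEL30. It reached 425.5 and 474 CPM at 6 and 18 hours in SKMEL2, and 540.5 and 616 CPM in SKMEL30.

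**Figure D1:**
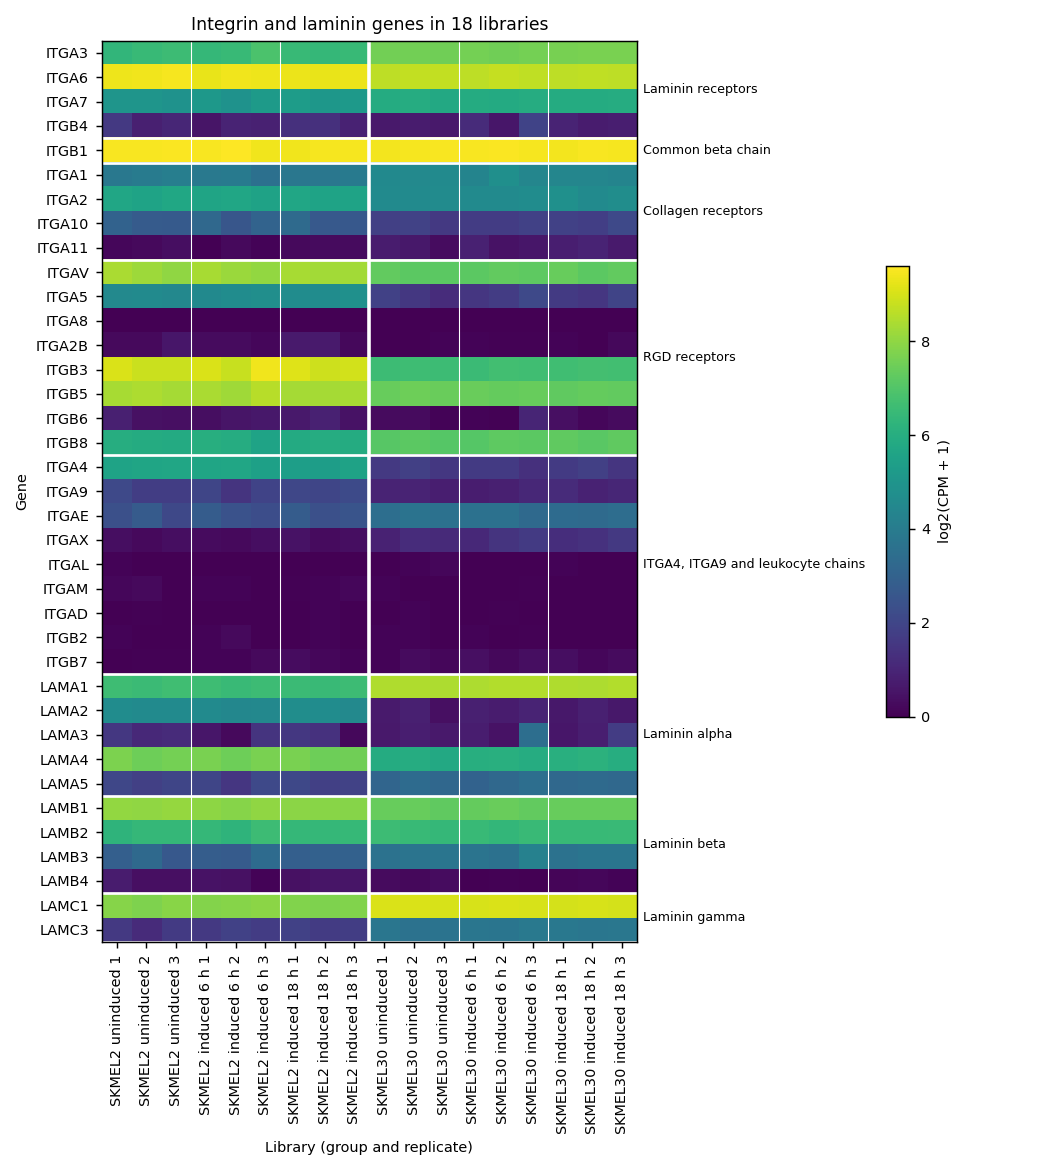
Level of the integrin and laminin genes reported here (rows, ordered by role) in each of the 18 libraries (columns, by group and replicate), as log2(CPM + 1) by colour. Most rows change colour at the line between SKMEL2 and SKMEL30 and not within a line, while LAMA3 varies from library to library.

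ITGB1, the beta chain shared by most matrix receptors, and ITGA6, an alpha chain that binds laminins, had the highest CPM of the integrins in both lines. ITGB1 stood at 727, 725 and 749 CPM in uninduced SKMEL2 and at 688, 718 and 725 CPM in uninduced SKMEL30, 2 sets that overlapped. Its log2 difference was 0.05 ± 0.05 (edgeR adjusted p = 0.38), or 0.15 with upper-quartile scaling (edgeR adjusted p = 0.00692). ITGA6 stood at 662, 670 and 710 CPM in SKMEL2 and at 402, 418 and 423 CPM in SKMEL30. All 3 SKMEL2 values of ITGA6 lay above all 3 of SKMEL30. The log2 difference of ITGA6, SKMEL2 minus SKMEL30, was 0.72 ± 0.04 (SE, adjusted p = 1.03e-11). The other laminin-binding alpha chains went the opposite way: ITGA3 averaged 87.2 CPM in SKMEL2 and 186.8 in SKMEL30 (log2 difference -1.10 ± 0.09), and ITGA7 averaged 30.4 and 58.5 CPM (-0.95 ± 0.08). ITGB4, which pairs with ITGA6 in the hemidesmosomes of epithelia, was low in both lines, with 16 to 35 counts in uninduced SKMEL2 and 9 to 12 in uninduced SKMEL30, and did not pass the test (adjusted p = 0.0607).

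Among receptor chains for RGD-containing ligands such as fibronectin and vitronectin, ITGB3, ITGAV, ITGB5 and ITGA5 were higher in SKMEL2 and ITGB8 was lower. ITGB3, which pairs with ITGAV, measured 530, 459 and 455 CPM in uninduced SKMEL2 against 94.3, 98.5 and 96.2 CPM in uninduced SKMEL30. The SKMEL2 mean was 5-fold higher, and the log2 difference was 2.32 ± 0.11 (adjusted p = 1.69e-13). ITGAV, the shared alpha chain of this family, averaged 293.5 CPM in SKMEL2 and 149.7 in SKMEL30, and ITGB5, another of its partners, 330 and 172 CPM. ITGB8, which also pairs with ITGAV and is known for binding latent TGF-beta, stood at 59.8 CPM in SKMEL2 against 139.9 CPM in SKMEL30 (log2 difference -1.23 ± 0.08). ITGA5, the classical fibronectin receptor chain, stood at 21.96, 23.4 and 21.4 CPM in SKMEL2 and at 2.59, 1.97 and 1.33 CPM in SKMEL30, which is 11.4-fold higher in SKMEL2. ITGB6, a chain typical of epithelia, had at most 21 counts in any library and did not pass the test (adjusted p = 0.11). ITGA8 was at 0 in all 18 libraries, which allows up to 3 counts in each, and ITGA2B, the platelet alpha chain, had at most 14 counts.

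Of the collagen-binding alpha chains, ITGA2 and ITGA10 were higher in SKMEL2 (49.9 against 23.3 CPM and 6.20 against 2.43 CPM) and ITGA1 was lower (14.9 against 22.4 CPM). ITGA11 was called lower in SKMEL2 at 2 to 6 counts against 4 to 12 counts (adjusted p = 0.0305), and this call was lost in DESeq2 (adjusted p = 0.0694), without the low-count filter (0.0576), and without uninduced SKMEL2 replicate 1 (0.0975) or 2 (0.0637) or uninduced SKMEL30 replicate 1 (0.136) or 2 (0.0736). ITGA4, which binds fibronectin and the endothelial ligand VCAM1, stood at 46.1, 49.3 and 49.9 CPM in uninduced SKMEL2 and at 2.03, 2.57 and 1.96 CPM in uninduced SKMEL30. It was 22.2-fold higher in SKMEL2, with a log2 difference of 4.46 ± 0.12 (adjusted p = 2.90e-17), the largest among the integrins tested. ITGA9, its closest relative, was also higher in SKMEL2, at 2.70 against 0.882 CPM.

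Most chains known from leukocytes were near the limit of detection. ITGB2, the beta chain that leukocyte integrins share, had at most 3 counts in a library, ITGAL at most 2, ITGAM at most 4, ITGAD at most 1 and ITGB7 at most 6, so that none entered a test. ITGAX was detected at 15 to 45 counts in SKMEL30 libraries and at 3 to 9 in SKMEL2 libraries, a log2 difference of -2.15 ± 0.34 (adjusted p = 1.23e-05). ITGAE averaged 4.39 CPM in SKMEL2 and 10.9 CPM in SKMEL30 (log2 difference -1.32 ± 0.18).

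The laminin alpha chains, which carry the main receptor-binding domains, differed in both directions, and LAMA2 had the largest log2 difference of the 30 members tested. LAMA2, the alpha chain of muscle and nerve basement membranes, stood at 24.6, 23.4 and 23.3 CPM in uninduced SKMEL2 and at 0.620, 0.819 and 0.317 CPM in uninduced SKMEL30. This is 40.6-fold, with a log2 difference of 5.30 ± 0.16 (adjusted p = 1.49e-16). LAMA4, found in vessels and in many mesenchymal and melanocytic cells, measured 210, 179.6 and 192 CPM in SKMEL2 against 58.5, 60.4 and 55.1 CPM in SKMEL30 (log2 difference 1.74 ± 0.07). LAMA1, a chain typical of embryonic basement membranes, went the other way, at 96.4, 91.8 and 100.7 CPM in SKMEL2 and 350, 348 and 341 CPM in SKMEL30 (log2 difference -1.85 ± 0.04, adjusted p = 5.12e-18). In none of these 3 genes did the lines overlap. On GRCh38.p14, RefSeq places LAMA2 (ENSG00000196569) at chr6:128883138-129516566 and LAMA1 (ENSG00000101680) at chr18:6941742-7117797, and the values are sums over each gene's exons. Per kilobase, LAMA4 was the leading alpha chain of uninduced SKMEL2 (16.2 RPKM, with LAMA1 at 6.07) and LAMA1 that of uninduced SKMEL30 (21.9 RPKM, with LAMA4 at 4.84). LAMA5, a widespread alpha chain, was low in both and lower in SKMEL2 (2.89 against 8.47 CPM).

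Of the chains that complete the trimer, LAMC1, the common gamma chain, averaged 229 CPM in SKMEL2 and 530 CPM in SKMEL30 (log2 difference -1.21 ± 0.04). LAMC3, a rarer gamma chain, averaged 1.81 and 11.9 CPM (-2.71 ± 0.14). LAMB1, the common beta chain, was higher in SKMEL2, at 262 against 159.6 CPM. LAMB2, the beta chain of synapses and of the kidney filter, did not pass the test at 80.1 against 88.8 CPM (adjusted p = 0.0659, but 0.0355 without uninduced SKMEL30 replicate 3). LAMA3 and LAMB3 are chains of the laminin that anchors epidermal cells. LAMB3 was lower in SKMEL2 (6.82 against 11.8 CPM, log2 difference -0.80 ± 0.19). LAMA3 had 9 to 14 counts in uninduced SKMEL30 libraries and 23 to 34 in uninduced SKMEL2 ones and was not called (adjusted p = 0.309). LAMB4 had at most 11 counts in any library.

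Ordered per length in uninduced SKMEL2, the leading chains were ITGA6 (102 RPKM), ITGB3 (70.5), ITGB5 (50.7), ITGB1 (50.4), LAMC1 (27.1), LAMA4 (16.2), ITGAV (15.2), LAMB1 (14.1), LAMB2 (11.7) and ITGA3 (8.9). The ranges of the 3 libraries overlapped between ITGB5 and ITGB1, between LAMA4 and ITGAV and between ITGAV and LAMB1, so these neighbours have no firm order. In uninduced SKMEL30 the order was LAMC1 (62.7 RPKM), ITGA6 (62.0), ITGB1 (48.8), ITGB5 (26.4), LAMA1 (21.9), ITGA3 (19.1), ITGB3 (14.1), LAMB2 (12.9), ITGB8 (9.23) and LAMB1 (8.59). There LAMC1 and ITGA6 overlapped, as did LAMB1 and ITGAV, the next in line. When levels were divided by the longest transcript in place of all exons, ITGB1 came first in both lines (130.7 and 126.5 CPM per kilobase), so its place depends on the length chosen.

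Counted over the whole set, 30 members passed the low-count filter in the fit of all 18 libraries, and 24 of them (80%) were called between the uninduced lines at an adjusted p under 0.05 in edgeR's quasi-likelihood test. Of all genes tested in this comparison, 75.9% were called, so the members' share lay near that of all genes. Called members were higher in SKMEL2 in 12 cases and lower in 12, against 40.1% and 35.8% of all genes. The members not called included ITGB1, ITGB4, ITGB6, LAMA3 and LAMB2. Calls were gained under other choices. Without the low-count filter ITGB4, ITGB6, LAMA3 and LAMB2 were called (adjusted p = 0.00948, 0.043, 0.00145 and 0.0454). A fit of the 6 uninduced libraries alone called ITGB4, LAMA3 and LAMB2 (0.0237, 0.00497 and 0.0466). ITGB4 was also called with upper-quartile scaling (0.0438) and without uninduced SKMEL2 replicate 2 (0.0343). The median log2 difference of the 30 members was 0.72, beside 0.05 for all genes. All 9 libraries of a line lay on 1 side of the other line's 9 for 23 of the 30 (76.7%), beside 62.6% of all genes. Each line being 1 transduced line, these are differences between 2 lines and not between kinds of melanoma.

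**Figure D2:**
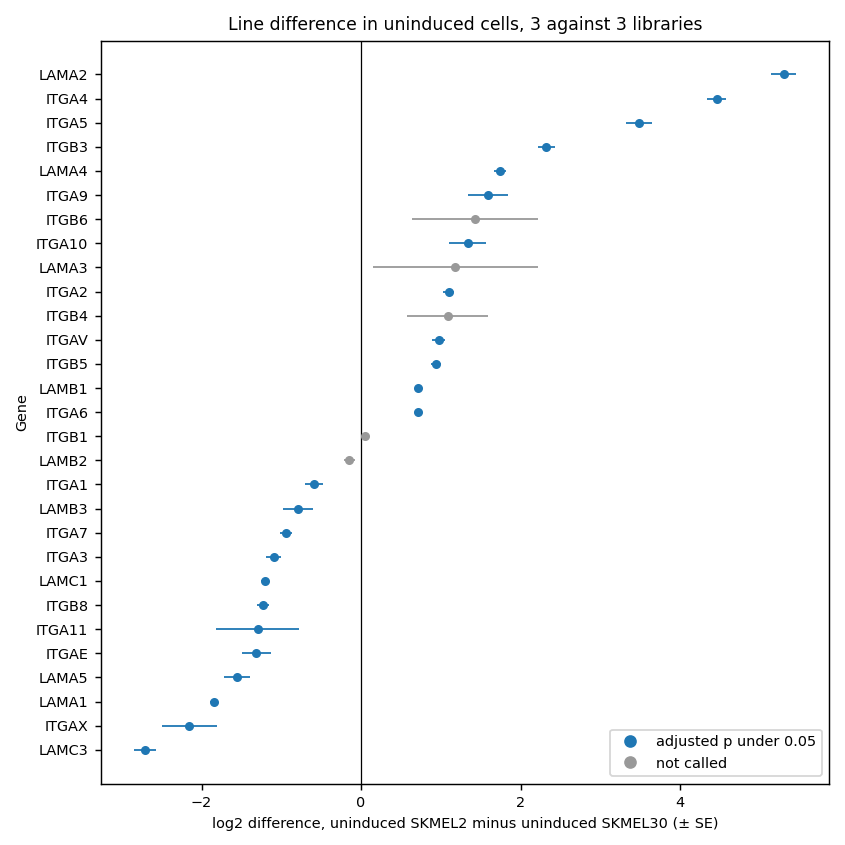
Log2 difference between uninduced SKMEL2 and uninduced SKMEL30 (x axis, SKMEL2 minus SKMEL30) for the tested genes reported here, with bars for the standard error and blue points for an adjusted p under 0.05. Values run from -2.71 (LAMC3) to 5.30 (LAMA2), and the widest bars belong to LAMA3 and ITGB6.

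Of 65 tested genes in 3 lists of adhesion genes, 51 (78.46%) were called between the uninduced lines, a share near the 75.9% of all genes. Of these, 18 were higher in SKMEL2 and 33 lower, beside 40.1% and 35.8% of all genes. Among matrix ligands and basement membrane partners 12 of 16 were called. TNC (tenascin C, log2 difference 2.83), NID1 (nidogen, which links laminin to collagen, 2.98), HSPG2 (perlecan, 1.03), CCN2 (3.09), THBS2 (3.39), TGFBI (6.41) and MFGE8 (0.37) were higher in SKMEL2. FN1 (fibronectin, -3.26), SPP1 (osteopontin, -4.21), AGRN (agrin, -1.87), NTN4 (-2.74) and EDIL3 (-1.71) were lower. FN1 averaged 455 CPM in uninduced SKMEL2 and 4345 CPM in uninduced SKMEL30, while its receptor chains ITGA5 and ITGA4 were higher in SKMEL2.

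Among the 31 tested proteins that act at integrin tails, 26 (83.87%) were called, a share near the 75.9% of all genes. Of these, 10 were higher in SKMEL2 and 16 lower, beside 40.1% and 35.8% of all genes. Those higher in SKMEL2 included FERMT1 (a kindlin, 3.29), TNS1 (a tensin, 2.33), KANK1, LIMS1, ZYX, PXN, ACTN4, ILK and ACTN1. FERMT3 (-2.23), PARVB (-1.78), NEDD9 (-1.65), TNS2, SRC, BCAR1, SHARPIN, KANK2, PTK2B, TLN2, VCL, ITGB1BP1, FLNA, TLN1, CRK and RSU1 were lower. Of 18 other laminin receptors and integrin-associated membrane proteins, 13 (72.22%) were called, again near the share of all genes. Here 1 was higher in SKMEL2 and 12 were lower, and a list this short says little beside the shares of all genes. MCAM (0.21) was higher in SKMEL2, and BCAM (a laminin receptor, -3.34), CD9 (a tetraspanin, -2.07), CD82, SDC1, L1CAM, SDC4, CD44, CD63, SGCE, CD81, CD47 and RPSA were lower.

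Induction raised PPP2R3B by 4.38 ± 0.17 (6 hours) and 4.52 ± 0.17 (18 hours) on the log2 scale in SKMEL2, and by 4.69 ± 0.05 and 4.88 ± 0.05 in SKMEL30. With the low-count filter, edgeR called no integrin or laminin gene in any comparison of induced with uninduced cells. In SKMEL2, 0 of 28 tested members were called at 6 hours and 0 at 18 hours, beside 0.0124% of all genes at each time. At an unadjusted p under 0.05 there were 0 of 28 and 4 of 28 members, beside 3.37% and 4.65% of all genes. In SKMEL30, 0 of 29 were called at 6 hours (0.206% of all genes) and 0 at 18 hours (0.293%). At an unadjusted p under 0.05 there were 5 of 29 members at each time, beside 6.44% and 9.14% of all genes. Between 18 and 6 hours no member was called in SKMEL2 (0% of all genes) or in SKMEL30 (0.02%). At an unadjusted p under 0.05 there were 1 of 28 and 2 of 29 members, beside 2.59% and 5.56% of all genes. With both times pooled the count was 0 in SKMEL2 (0.0186% of all genes) and 0 in SKMEL30 (0.26%). At an unadjusted p under 0.05 there were 2 of 28 and 5 of 29 members, beside 4.42% and 8.67% of all genes. DESeq2 called 1 member in 1 of these comparisons, ITGB5 at 18 hours in SKMEL30. The share of all genes that DESeq2 called is not given here.

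For most members the estimates bounded the change between these samples, though the spread they rest on may be technical. The 95% intervals use a normal approximation, which gives narrower intervals than the quasi-likelihood test would with 3 libraries per group. At 6 hours in SKMEL2 the log2 fold change lay within 0.25 of 0 for 24 of 28 members, and the 95% interval (normal approximation from the standard error) stayed within a log2 change of 1 for 24 and within 0.5 for 19. At 18 hours these counts were 25, 25 and 20. In SKMEL30 they were 23, 23 and 19 of 29 at 6 hours and 23, 24 and 20 at 18 hours. Medians over the members were -0.018 and -0.019 at 6 and 18 hours in SKMEL2, and 0.028 and 0.070 in SKMEL30, beside medians of all genes within 0.003 of 0.

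**Figure D3:**
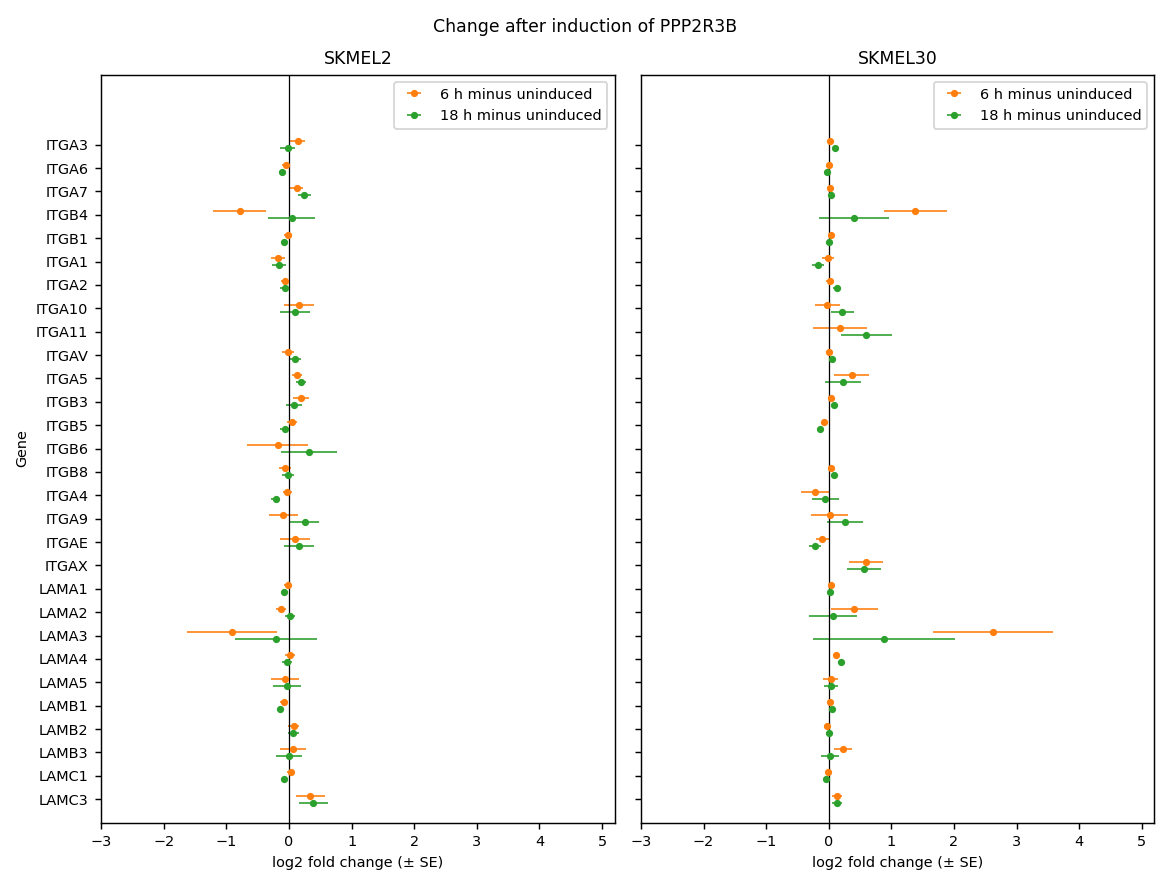
Log2 fold change of the tested genes reported here after induction for 6 hours (orange) and 18 hours (green) in each line, with bars for the standard error. Most points lie close to 0, and LAMA3 and ITGB4 stand away from 0 with wide bars, below 0 at 6 hours in SKMEL2 and above 0 in SKMEL30.

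Among abundant members, the smallest p-values were those of ITGB5 and LAMA4 in SKMEL30. LAMA4 measured 58.5, 60.4 and 55.1 CPM in uninduced cells, 64.0, 65.7 and 60.4 CPM at 6 hours and 66.3, 70.6 and 63.2 CPM at 18 hours. Every induced library exceeded every uninduced one, though barely, at 60.40 CPM in 6-hour replicate 3 against 60.36 in uninduced replicate 2. Such a separation held for 1 of 29 members (3.45%) beside 4.37% of all genes. The log2 fold change at 18 hours was 0.20 ± 0.05 (adjusted p = 0.17, or 0.00434 without the low-count filter), and an exact permutation test of 6 induced against 3 uninduced libraries gave a two-sided p of 0.0238, where 0.0119 is the smallest possible. ITGB5 measured 166.7, 178.7 and 171 CPM in uninduced cells, 167.7, 161 and 164.6 CPM at 6 hours and 151, 160.5 and 157 CPM at 18 hours. Its values at 18 hours lay below all uninduced ones, with a log2 fold change of -0.14 ± 0.03 (adjusted p = 0.139 in edgeR, 0.00587 in edgeR without the low-count filter and 0.0407 in DESeq2). In SKMEL2 the corresponding log2 values at 18 hours were -0.04 ± 0.08 for LAMA4 and -0.06 ± 0.08 for ITGB5. The exact test was run for 28 members in SKMEL2, of which LAMB1 (p = 0.0357) and LAMC3 (p = 0.0238) had p-values under 0.05, and for 29 in SKMEL30, of which LAMA4, ITGB5 (p = 0.0476) and LAMC3 (p = 0.0476) did. Over all genes tested, 4.34% in SKMEL2 and 7.74% in SKMEL30 had such a p. In SKMEL2, 0 of 28 members had all 6 induced libraries on 1 side of the uninduced ones, beside 2.48% of all genes.

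The most abundant receptor chains were not called, and their means lay close together. In SKMEL2, ITGA6 averaged 680.5, 655 and 633 CPM in uninduced cells and at 6 and 18 hours, and ITGB1 734, 726 and 697.5 CPM. In SKMEL30, ITGA6 averaged 414, 416 and 405 CPM and ITGB1 710, 728.5 and 713 CPM. ITGB3 stood at 531.5, 444 and 667 CPM in the 3 SKMEL2 libraries induced for 6 hours, a spread that covered all uninduced values.

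LAMA3 and ITGB4 had large fold changes with wide errors, and in SKMEL30 these rested on 1 or 2 libraries. In SKMEL30, LAMA3 had 10, 14 and 9 counts in uninduced cells, 9, 8 and 215 counts at 6 hours and 9, 11 and 41 counts at 18 hours. Replicate 3 of the 6-hour group stood far above the rest, and replicate 3 of the 18-hour group came next. ITGB4 (61 counts beside 9 to 17 in the other 8 SKMEL30 libraries), LAMB3 (380 beside 155 to 226) and ITGB6 (21 beside 1 to 6) were also highest in the 6-hour replicate 3.

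The basal keratins KRT5 and KRT14, markers of basal keratinocytes, were high in the same libraries. KRT5 had 803 counts and KRT14 566 counts in SKMEL30 6-hour replicate 3, 118 and 76 in 18-hour replicate 3, 38 and 27 in 6-hour replicate 1, and at most 6 and 13 in the other 6 SKMEL30 libraries. In SKMEL2 the same genes split the libraries in another way. KRT5 was at 61 to 142 counts in 6 libraries and at 3, 0 and 0 in 6-hour replicates 1 and 2 and 18-hour replicate 3. In these 3 libraries LAMA3 was at 9, 3 and 3 counts, beside 23 to 44 in the other 6. Of the other keratinocyte markers, KRT1 was at 0 in all 18 libraries, EPCAM was at 13 to 24 counts in every SKMEL2 library and at most 5 in SKMEL30, and CDH1, which SKMEL30 expressed at 100.5 to 127 CPM, did not follow KRT5 (it rose by 0.29 ± 0.04 on the log2 scale at 18 hours, adjusted p = 0.00341). In bulk RNA, more cells of a type and more RNA per cell cannot be told apart. The summed level of the 5 keratinocyte markers ran from 11.9 to 20.2 CPM in uninduced SKMEL2, from 4.25 to 13.1 at 6 hours and from 5.74 to 18.8 at 18 hours. In SKMEL30 it ran from 101.7 to 104.8, from 100.7 to 169 and from 124 to 136.7 CPM. Most of the SKMEL30 sum was CDH1, so the sums do not compare keratin levels between the lines. The part of these libraries' keratin levels in the laminin values was not tested.

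**Figure D4:**
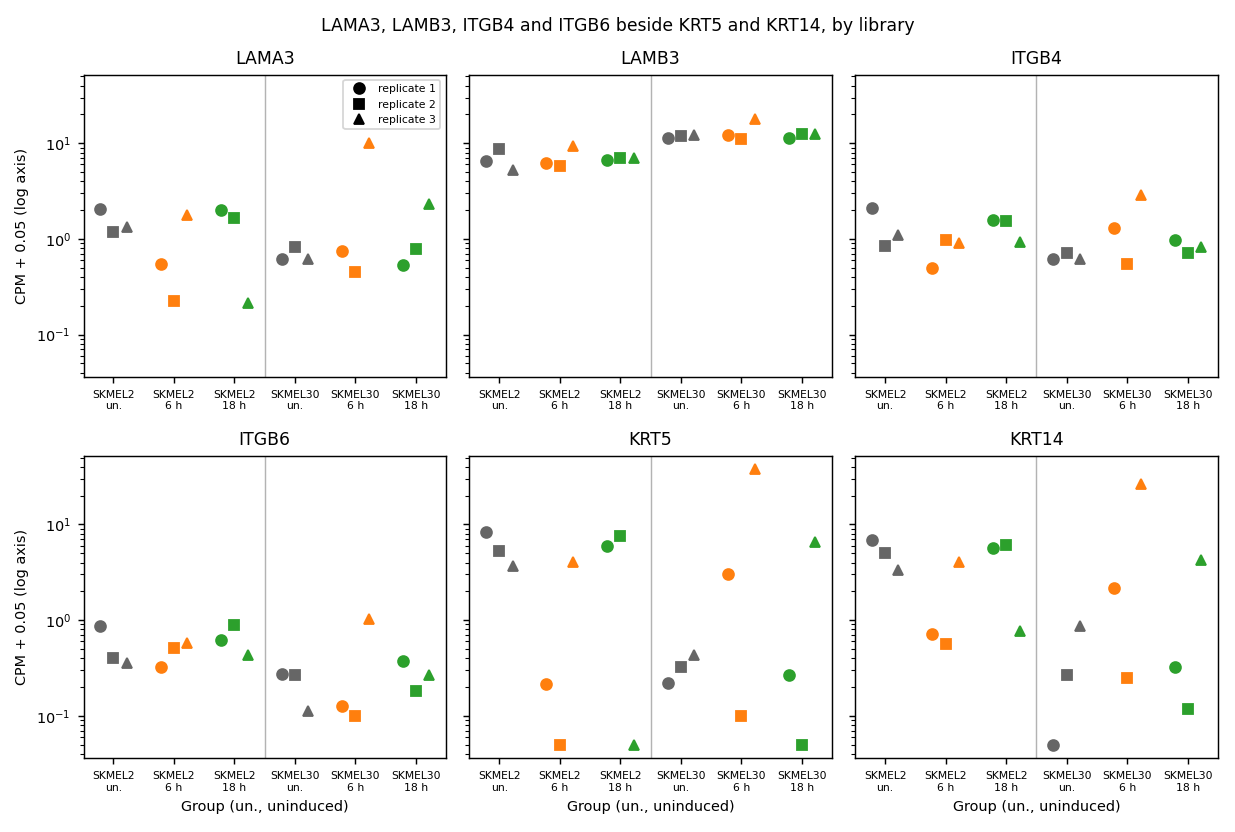
CPM + 0.05 on a log axis for LAMA3, LAMB3, ITGB4, ITGB6, KRT5 and KRT14 in each library, by group on the x axis, with a symbol per replicate number. LAMA3 is high beside high KRT5 and KRT14 in SKMEL30 6-hour replicate 3, in its 18-hour replicate 3 and in 6 of the 9 SKMEL2 libraries, but not in SKMEL30 6-hour replicate 1, where both keratins stand above the uninduced libraries.

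With all libraries, the log2 fold changes at 6 hours in SKMEL30 were 2.62 ± 0.96 for LAMA3 (adjusted p = 0.656), 1.38 ± 0.50 for ITGB4 (0.643) and 0.22 ± 0.14 for LAMB3 (0.823). Without the low-count filter LAMA3 and ITGB4 were called (adjusted p = 3.73e-19 and 0.00951). Without 6-hour replicate 3 the value of LAMA3 was -0.27 and that of LAMB3 -0.046, so both changed sign, and ITGB4 stood at 0.46. Leaving out both SKMEL30 libraries in which LAMA3 was highest, a choice made after the data were seen, gave -0.27, -0.044 and 0.45 for LAMA3, LAMB3 and ITGB4. At 6 hours in SKMEL2, LAMA3 had a log2 fold change of -0.91 ± 0.72 (adjusted p = 0.989). With all libraries the values of LAMA3 had opposite signs in the 2 lines, but without SKMEL30 6-hour replicate 3 they had the same sign. The difference between the lines in the LAMA3 response at 6 hours was -3.51 ± 1.40 on the log2 scale (adjusted p = 0.902, or 7.05e-12 without the low-count filter). Over 17 refits this difference ran from -4.69 to -0.65. With the filter, no member was called in the interaction of line and induction at 6 hours (0% of all genes) or at 18 hours (0.00584%). At an unadjusted p under 0.05 there were 3 of 30 members at each time, beside 4.91% and 5.16% of all genes. In uninduced cells, where LAMA3 was not called between the lines with all 18 libraries, a fit of the 6 uninduced libraries alone called it (adjusted p = 0.00497), and KRT5 was at 3.61 to 8.27 CPM in those SKMEL2 libraries and at 0.169 to 0.38 CPM in those of SKMEL30.

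Among the 73 genes of the 3 adhesion lists, 2 fell on induction in SKMEL30, both of them matrix proteins that bind integrins. CCN1, a matricellular ligand of ITGAV and ITGA6 receptors, measured 30.2, 29.1 and 29.2 CPM in uninduced cells, 16.5, 19.1 and 15.5 CPM at 6 hours and 21.3, 19.6 and 22.5 CPM at 18 hours. All induced values lay below all uninduced ones. On the log2 scale it changed by -0.79 ± 0.07 after 6 hours (adjusted p = 6.94e-05) and by -0.48 ± 0.07 after 18 hours (0.00811). THBS1 (thrombospondin 1) measured 258, 242 and 243.5 CPM in uninduced cells, 208, 198.5 and 190 CPM at 6 hours and 204, 191.7 and 203 CPM at 18 hours, again with no overlap. The log2 change was -0.32 ± 0.04 after 6 hours (adjusted p = 0.000928) and -0.31 ± 0.04 after 18 hours (0.00103). The 2 called genes were 3.03% of the 66 tested at either time, and 0.113% of all genes were called lower at 6 hours and 0.12% at 18 hours. The adhesion lists were chosen with earlier results of these data known, which limits this comparison. Both calls at both times were lost when all 18 libraries shared a single estimate of the spread (adjusted p = 0.147 for CCN1 at 6 hours and 1 for the rest). The 18-hour call of CCN1 was also lost without uninduced replicate 1 (0.0628), 18-hour replicate 1 (0.0567) or 18-hour replicate 2 (0.0551).

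In SKMEL2, 0 of 61 tested adhesion genes were called at either time by edgeR, beside 0.0124% of all genes. DESeq2 called 1 at each time, and its share of all genes is not given here. In edgeR, 4 and 8 of the 61 had an unadjusted p under 0.05 at 6 and 18 hours, beside 3.37% and 4.65% of all genes. In SKMEL30, 12 and 11 of 66 did, beside 6.44% and 9.14% of all genes. The smallest p-values in SKMEL2 were those of CCN2, CCN1 and THBS1. CCN1 averaged 35.6 ± 7.61 CPM in uninduced cells, 24.4 ± 5.74 at 6 hours and 24.4 ± 3.52 at 18 hours (SD, n = 3 each), with a log2 fold change at 18 hours of -0.55 ± 0.18 (adjusted p = 0.987). For THBS1 the log2 value was -0.38 ± 0.12 at that time (adjusted p = 0.987, or 0.0428 with the replicate number as a block). Over 14 refits THBS1 was called in 2, and the block gave the larger of these 2 adjusted p-values. CCN1 was called at 18 hours in 1 of 13 refits. The shares of all genes called in these refits are not given here. CCN2, a relative of CCN1, measured 125.5, 144.5 and 147 CPM in uninduced cells and 94.7, 93.5 and 101.5 CPM at 18 hours, with a log2 fold change of -0.53 ± 0.11 (adjusted p = 0.577). The difference between the lines in the response at 6 hours was 0.23 ± 0.22 for CCN1 and -0.04 ± 0.14 for THBS1, neither of which was called (adjusted p = 0.902 and 0.99).

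**Figure D5:**
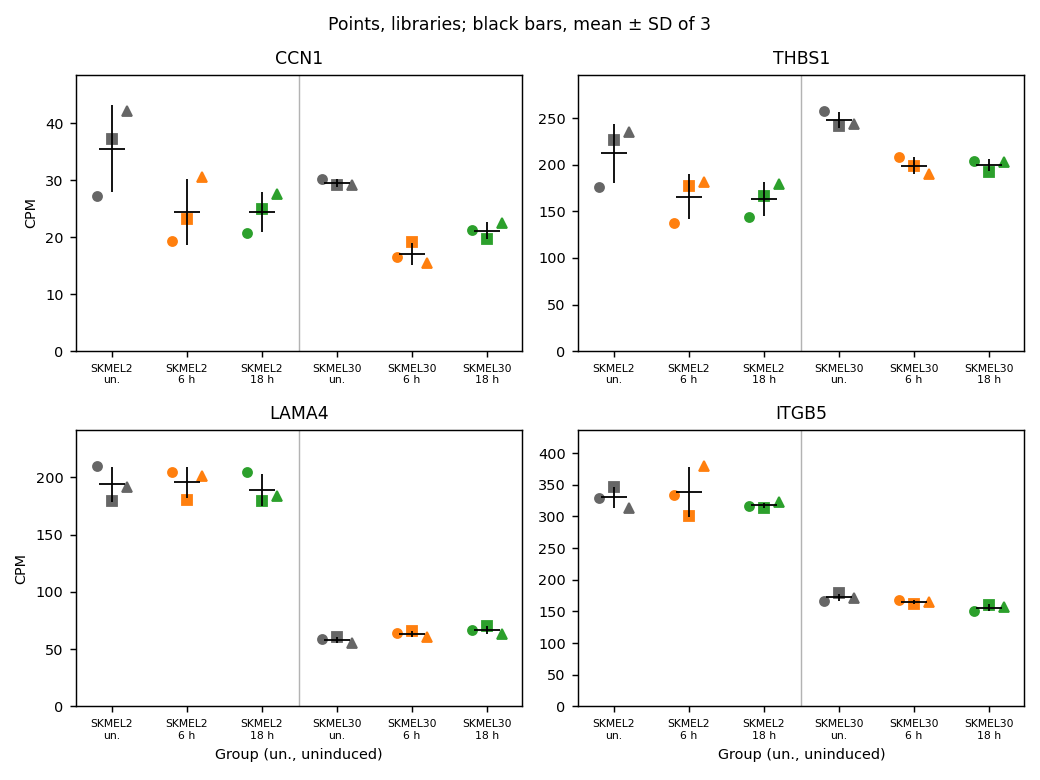
CPM of CCN1, THBS1, LAMA4 and ITGB5 in each library (points, with a symbol per replicate number) by group, with black bars for the mean ± SD of 3 libraries and axes that start at 0. In SKMEL30 the induced libraries of CCN1 and THBS1 lie below the uninduced ones and those of LAMA4 above.

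The remaining adhesion genes with the smallest p-values were not called. In SKMEL30 these were ZYX at 6 hours (log2 fold change -0.22 ± 0.04, adjusted p = 0.0855) and TNC at 18 hours (0.18 ± 0.04, adjusted p = 0.158), and between 18 and 6 hours CCN1 (0.31, adjusted p = 0.551), SPP1 (0.14) and ZYX (0.12). Between 18 and 6 hours in SKMEL2 they were TNS1 (0.29), TNC (-0.12) and TLN2 (0.20), with an adjusted p of 1 for each. In the interaction at 6 hours they were FERMT1 (-1.32), TGFBI (-1.13) and NTN4 (-3.66), with an adjusted p of 0.902 for each, and at 18 hours TNC (-0.31, adjusted p = 0.732), TNS1 (0.62) and CD81 (0.19).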

How the data were processed

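RNA was extracted from cells in 6-well plates, libraries were made with the KAPA mRNA HyperPrep kit and sequenced as paired ends. The authors trimmed reads with Cutadapt, aligned them with STAR to the Ensembl transcriptome on GRCh38, merged lanes with Samtools 1.8 and estimated counts with RSEM 1.3.0. The versions of Cutadapt and STAR differ between the submitters' processing notes and the study's methods, as does the later induction time, for which the labels' 18 hours was used. What the authors deposited is RSEM's expected counts per gene with no scaling for depth, and 12.3% of them are not whole because ambiguous reads are shared. Totals of 13402645 to 22383470 per library limit what low counts can show.

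Values were rounded to whole counts. Low genes were removed with filterByExpr and libraries scaled by TMM (edgeR 4.0.16, R 4.3.3), and each line's 9 libraries were fitted together by the quasi-likelihood method (16120 genes in SKMEL2, 15026 in SKMEL30). Line differences and interactions used all 18 libraries (17133 genes). Calls are Benjamini-Hochberg adjusted p-values under 0.05 over all genes tested, and a standard error is the log2 fold change divided by the square root of F. Exact permutation tests of single genes used log2(CPM + 1), 84 splits. Symbols were matched for 55604 genes (95.8%), and RPKM used exon lengths from GENCODE. The code was tested on simulated data. The members and gene lists were chosen with earlier results of these data known, and members that passed the filter are named, as are adhesion genes called and the 3 with the smallest p in each comparison. Some genes counted in the totals are not reported here by name. Of the 5 endothelial markers, 4 were matched. Alternatives were DESeq2 1.42.0, other scaling and filters, other sets of libraries, a replicate block, other gene lengths and a pseudocount of 0.1.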

Additional observations from a re-analysis of the deposited data

Results flagged for a closer look

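The 6 induced libraries of each line were examined as 1 set for each tested member reported here, and a set was listed when its highest or lowest library was separated from the nearest other by a share of the whole range above Dixon's 95% critical value. This happened in 9 of 55 sets, where a nominal rate of 1 in 20 gives 2.75 sets. The sets of a line share the same libraries and are not independent, and the share of all genes listed is not given here. The count is therefore not read as particular to these genes.

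In SKMEL30 the 6-hour replicate 3 was the highest library for LAMA3 (gap over range 0.808), LAMB3 (0.788) and ITGB4 (0.682), the genes described above beside KRT5 and KRT14. The 6-hour replicate 2 stood apart for ITGA1, as the highest at 26.6 CPM (0.798), and for LAMB2, as the lowest at 82.3 CPM (0.791). The 18-hour replicate 3 was highest for ITGA10 at 3.35 CPM (0.627). In SKMEL2 the 6-hour replicate 3 was highest for ITGA3 at 117.8 CPM (0.857) and LAMB3 at 9.38 CPM (0.68), and lowest for ITGB8 at 46.8 CPM (0.704). What sets these libraries apart was not tested.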

How the results depend on the processing

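Over 367 refits of the line difference of single members reported here none changed sign, 6 lost and 11 gained a call, and the count of members called stayed between 24 and 26 when 1 library was left out. Counts of members called on induction stayed at 0 in every such refit. Without the low-count filter they were 1 at 6 hours, 1 between 18 and 6 hours and 1 with times pooled in SKMEL2, 3 at 6 hours, 3 at 18 hours, 2 between 18 and 6 hours and 4 with times pooled in SKMEL30, and 3 and 1 in the interactions at 6 and 18 hours. DESeq2 gave 1 at 18 hours in SKMEL30. Counts of adhesion genes called at 6 and 18 hours were 3 and 4 in SKMEL2 and 4 and 5 in SKMEL30 without the filter, 1 and 1 in SKMEL2 and 4 at 18 hours in SKMEL30 in DESeq2, 0 and 0 in SKMEL30 with all 18 libraries in a single fit, and 1 at 18 hours in SKMEL2 with the 2 groups alone. With 1 library left out they ran from 0 to 1 at 6 hours in SKMEL2 and from 1 to 2 at 18 hours in SKMEL30. The shares of all genes called with DESeq2, without the filter and in the other refits are not given here. The counts under these settings are therefore not read as particular to the members or the adhesion lists. Of the log2 fold changes on induction, 5 refits changed sign: LAMA3 and LAMB3 at 6 hours in SKMEL30, which ran from -0.27 to 3.17 and from -0.046 to 0.38 with 1 library left out and stood at -0.27 and -0.044 without both high libraries, and LAMA4 at 18 hours in SKMEL2, which ran from -0.10 to 0.029. The cause of these shifts was not tested, save that leaving out a library removes its counts. The labels do not say whether replicate numbers pair the samples. Correlations over all tested genes of deviations between libraries of the same number lay between -0.128 and 0.173 (SKMEL2) and between -0.0217 and 0.119 (SKMEL30). They were not compared with libraries of different number, so they cannot exclude a pairing. With the replicate number as a block, 1 adhesion gene was called at 18 hours in SKMEL2, and no count of members changed by more than 1.5 times.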
